A study of Mus musculus with 20 samples.

Results

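Epithelial-mesenchymal transition (EMT) is the program by which epithelial cells loosen their junctions and take on mesenchymal features. The 10 genes described here stand for its steps: Cdh1 and Cdh2 encode E-cadherin and N-cadherin, Vim and Fn1 encode the mesenchymal filament vimentin and the matrix protein fibronectin, Snai1, Snai2, Zeb1, Zeb2 and Twist1 encode the transcription factors that drive the program, and Glipr2 encodes a Golgi-associated protein linked to it. They were taken by gene symbol from both deposited tables of read counts, in which all 10 were listed among 50559 gene symbols. Of the 10, 9 passed the filter on low counts, along with 14333 genes in all, and Twist1 did not. Snai2 passed it through the livers alone.

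RNA was sequenced from 20 libraries, 5 per group, each from a separate mouse. The mice were C57BL/6J females labelled as wild type. Those with tumors were injected as young adults by hydrodynamic gene transfer, in which plasmids pushed through the tail vein enter some hepatocytes. The Sleeping Beauty transposase, which inserts plasmids built for it, was supplied by a further plasmid. FGF19+MYC tumors carried MYC (plasmid pT3-EF1a-MYC, EF1a promoter) and human FGF19, a hormone of the gut. Aldafermin+MYC tumors carried the same MYC plasmid and Aldafermin, an analog of FGF19 with an altered amino-terminal part, and both are called the hormone groups here. The sgTrp53+MYC tumors carried the same MYC plasmid and a CRISPR plasmid that targets Trp53. MYC was thus shared by all tumors, and no tumor with MYC alone was analysed here. The Liver group held 5 livers labelled healthy and non treated. The study's figure legend for the same sequencing data describes the control liver as injected with a plasmid for a red fluorescent protein. Which of these holds for the 5 livers is not settled here. RNA came from single frozen tumors without sorting of cells.

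Reads counted on genes ranged from 18004977 to 66354724 among the libraries, and the 5 of sgTrp53+MYC were the deepest (54042455 or more). These 5 libraries stood in a table of their own, with 11.1 to 14.6% of read pairs ambiguous between genes against 3.03 to 6.30% in the other table, so the group and its table cannot be told apart in any comparison with them. The targeted gene followed the labels when tumors were compared: Trp53 was at 18.7 to 79.9 CPM (read counts scaled to a common library size) in sgTrp53+MYC tumors, 90.8 to 176 in Aldafermin+MYC tumors, 109.7 to 155 in FGF19+MYC tumors and 28.8 to 36.4 in livers. All 10 hepatocyte markers on a list, albumin (Alb) first, were detected in every library, and their summed level was 195504 to 257792 CPM in livers against 11811 to 27629 in Aldafermin+MYC, 13278 to 35405 in FGF19+MYC and 5694 to 14334 CPM in sgTrp53+MYC tumors.

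In the epithelium, E-cadherin clasps neighbouring cells together, and its gene is the classic target of the EMT factors: SNAI and ZEB proteins bind E-boxes, and silence Cdh1 from its promoter, while vimentin, fibronectin and N-cadherin rise. Hepatocytes are unusual among epithelia because they carry N-cadherin beside E-cadherin and secrete fibronectin into plasma. A transcript level in a bulk sample follows both the cells present and the RNA per cell: fewer cells of a type and less RNA per cell cannot be told apart.

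The promoters of Cdh1 and Snai1 are shown because the encoded protein of the second binds sites of the kind that the first carries. The 250 bases before the start of each canonical GENCODE transcript were read from the mouse genome, build GRCm39, plus strand. Capitals mark CAGGTG or its reverse complement CACCTG, the E-box that SNAI and ZEB zinc fingers prefer. The windows are chr8:107329733-107329982 for Cdh1 and chr2:167379863-167380112 for Snai1.
Cdh1: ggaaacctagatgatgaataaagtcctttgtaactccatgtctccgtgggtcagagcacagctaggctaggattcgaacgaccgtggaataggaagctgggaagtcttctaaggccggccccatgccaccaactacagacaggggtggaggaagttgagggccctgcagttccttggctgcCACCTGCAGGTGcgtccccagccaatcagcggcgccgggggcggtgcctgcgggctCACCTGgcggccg
Snai1: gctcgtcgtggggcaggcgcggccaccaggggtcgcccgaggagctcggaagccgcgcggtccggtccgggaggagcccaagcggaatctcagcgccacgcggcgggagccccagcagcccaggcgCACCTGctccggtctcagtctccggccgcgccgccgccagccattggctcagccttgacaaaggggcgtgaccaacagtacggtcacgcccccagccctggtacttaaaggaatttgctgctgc
The Cdh1 window held 3 such E-boxes, at positions -69, -63 and -13 from the start, and those at -69 and -63 stood side by side without overlap. Among 21757 protein-coding promoters of this length, 17.7% held at least 1 and 0.28% held 3 or more, counted on both strands. The Snai1 window held 1, at -124. Cdh2 held 1 and Zeb1 held 2, and no match stood in the windows of Vim, Fn1, Glipr2, Snai2, Zeb2 and Twist1. These letters are a description of the sequence, and no binding was measured.

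Levels were compared between genes as CPM per kilobase of exon, with normalization by the trimmed mean of M-values (TMM). The length was that of all annotated GENCODE exons of a gene merged, such as 4638 bases for Cdh1 and 8669 for Cdh2. Levels set between genes depend on that choice, while levels of 1 gene set between groups do not. Livers had the fibronectin transcript highest (168 ± 40.4 CPM per kilobase, mean ± SD, n = 5), followed by Cdh2 (13.99 ± 2.28) and Cdh1 (13.2 ± 5.82), which did not differ beyond their spread. In Aldafermin+MYC tumors the order was Cdh1 (61.8 ± 11.2), Glipr2 (50.0 ± 10.4), Fn1 (24.9 ± 10.3), Vim (24.3 ± 16.0) and Cdh2 (9.79 ± 0.867), with Cdh1 and Glipr2, and again Fn1 and Vim, within each other's spread. The FGF19+MYC tumors had the same order, from Cdh1 (55.9 ± 14.6) and Glipr2 (41.3 ± 5.98) to Cdh2 (10.1 ± 1.90). In sgTrp53+MYC tumors Cdh1 came first as well (38.0 ± 11.8) but Glipr2 stood at 8.01 ± 7.77 CPM per kilobase. The transcription factors were low everywhere: Snai1, Snai2, Zeb1, Zeb2 and Twist1 each averaged under 2 CPM per kilobase in every group apart from Snai2 in livers (3.85 ± 1.22).

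**Figure D1:**
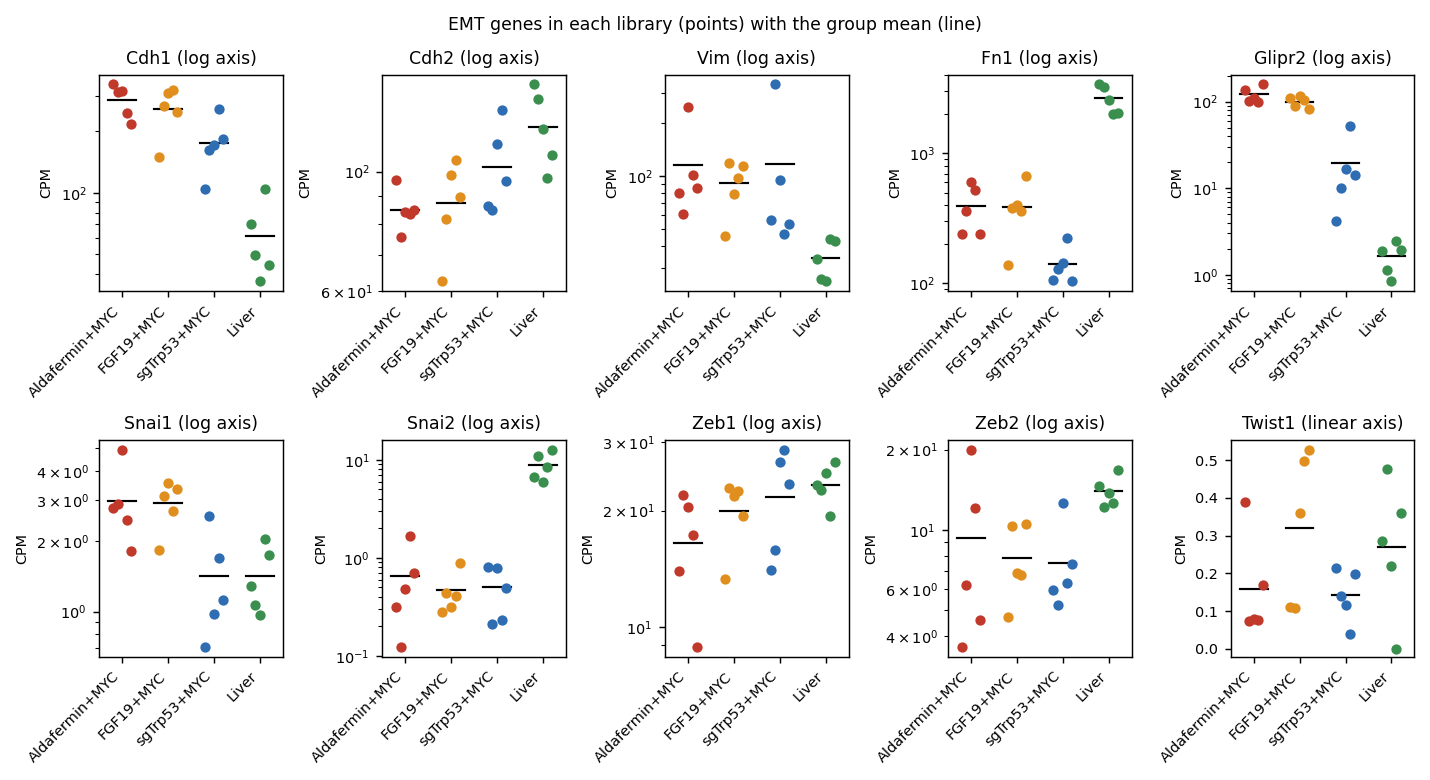
Levels of the 10 genes in CPM (vertical axes, logarithmic except for Twist1) in each of the 20 libraries, by group along the horizontal axis, with points for libraries and a line for the group mean. Cdh1 and Glipr2 were above all livers in all 15 tumors, Fn1 and Snai2 were below all livers in all 15, and the Vim points of sgTrp53+MYC replicate 2 (334 CPM) and Aldafermin+MYC replicate 3 (249 CPM) stood apart.

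Each tumor group was first set against livers. In Aldafermin+MYC tumors 4 of the 9 tested genes were higher (Cdh1, Vim, Glipr2 and Snai1) and 3 were lower (Cdh2, Fn1 and Snai2) with adjusted p-values below 0.05 (quasi-likelihood test of edgeR), where 70.3% of all tested genes passed, 38.4% higher and 31.9% lower. The same 4 were higher and the same 3 lower in FGF19+MYC tumors, beside 69.7% of all genes (36.9% higher, 32.9% lower). In sgTrp53+MYC tumors 3 were higher (Cdh1, Vim and Glipr2) and 3 lower (Fn1, Snai2 and Zeb2), beside 69.9% of all genes (36.9% higher, 33% lower). Shares of 7, 7 and 6 in 9 are near these backgrounds, so what follows are the values of single genes. The 3 comparisons share the 5 livers, and Snai2, counted as lower in each, passed the filter through the livers alone.

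Both hormone groups were then set against sgTrp53+MYC tumors, which also carry MYC. Fn1, Glipr2 and Snai1 were higher and no gene was lower among the 9, in Aldafermin+MYC tumors (17.7% of all genes passed, 10.2% higher and 7.53% lower), in FGF19+MYC tumors (15.8%, 7.97% higher and 7.78% lower) and in the mean of both (23.7%, 11.6% higher and 12.1% lower). These comparisons share the sgTrp53+MYC libraries. Glipr2 and Snai1 also stand on a list of EMT regulators that the study drew from these libraries. Their direction against sgTrp53+MYC tumors is therefore no independent evidence. Between Aldafermin+MYC and FGF19+MYC tumors none of the 9 genes passed, as was the case for 0% of all genes in edgeR's quasi-likelihood test. None of the 9 had an unadjusted p under 0.05 there, while 1048 of all genes did, and the counts past the threshold were 96 in DESeq2 and 93 in the likelihood ratio test of edgeR, with none of the 9 among them.

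Separation of all libraries of 2 groups was counted apart from the test. Against livers Cdh1, Vim and Glipr2 were wholly higher in each tumor group, where 31.3%, 32.4% and 28.8% of all genes were so in Aldafermin+MYC, FGF19+MYC and sgTrp53+MYC tumors. Fn1 and Snai2 were wholly lower in each, joined by Cdh2 in Aldafermin+MYC and Zeb2 in FGF19+MYC tumors, beside 27.5%, 30.1% and 27.4% of all genes. Against sgTrp53+MYC tumors, Fn1 and Glipr2 were wholly higher in Aldafermin+MYC (5.61% of all genes) and Glipr2 in FGF19+MYC (5.45%), and no gene of the 9 was wholly lower (4.14% and 5.45%). Over both hormone groups the wholly higher gene was Glipr2 (3.28% of all genes), with none lower (2.42%). None of the 9 separated Aldafermin+MYC from FGF19+MYC tumors, where 1.07% of all genes were wholly higher and 0.391% wholly lower.

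**Figure D2:**
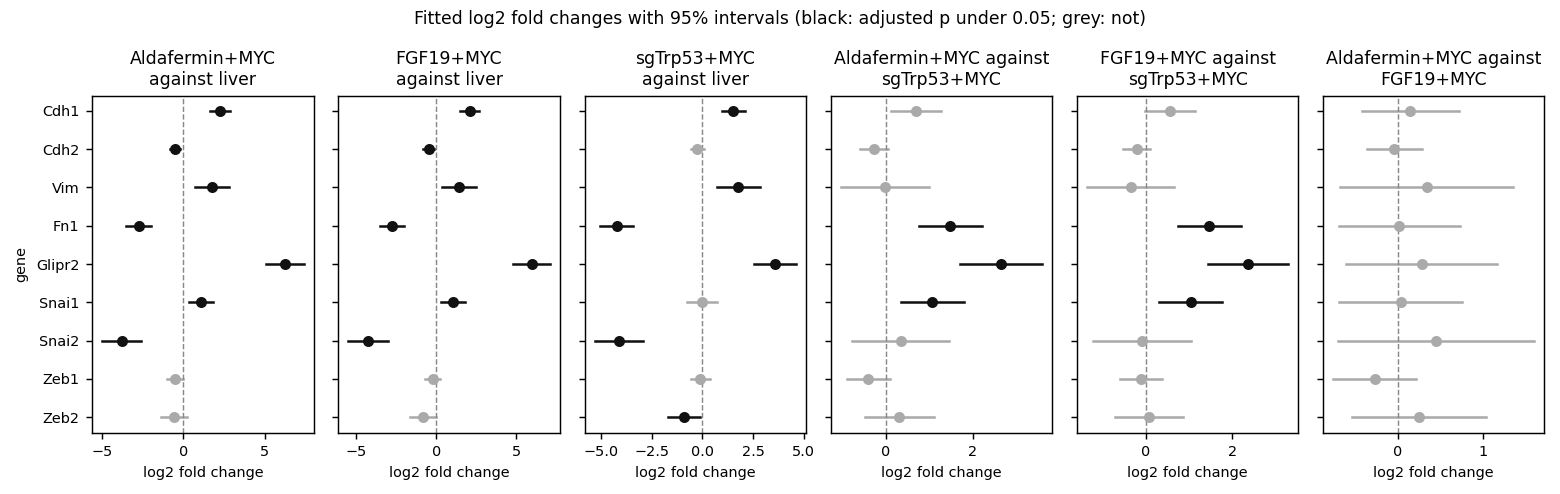
Fitted log2 fold changes (horizontal axes, each panel with its own scale) of the 9 tested genes with 95% intervals, 1 panel per comparison. Black marks genes with an adjusted p under 0.05. Against livers Glipr2 lies farthest to the right in the hormone groups (6.22 and 5.95) and Snai2 and Fn1 to the left, and in the last panel every interval spans 0.

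Cdh1, the gene of E-cadherin (chr8:107329941-107396880 in GRCm39, plus strand, 16 exons), was higher in every tumor group than in livers. Its level was 340.4, 313, 316, 247 and 218 CPM in the 5 Aldafermin+MYC tumors and 150.1, 266, 309.6, 321 and 249.6 CPM in the 5 FGF19+MYC tumors. The sgTrp53+MYC tumors had 105, 163, 171, 258 and 184 CPM and the livers 70.4, 49.8, 36.8, 104 and 44.5 CPM. No tumor lay below any liver, though the lowest sgTrp53+MYC tumor and the highest liver were nearly level. The log2 fold change against livers was 2.23 ± 0.29 (SE, adjusted p = 1.1e-06, edgeR) for Aldafermin+MYC, 2.09 ± 0.28 (adjusted p = 2.5e-06) for FGF19+MYC and 1.53 ± 0.28 (adjusted p = 7.4e-05) for sgTrp53+MYC. Against sgTrp53+MYC tumors Cdh1 differed by 0.70 ± 0.27 in Aldafermin+MYC tumors (95% interval 0.13 to 1.28, adjusted p = 0.082) and by 0.56 ± 0.27 in FGF19+MYC tumors (adjusted p = 0.18), which did not pass. The 2 hormone groups averaged also missed the threshold (log2 0.63, adjusted p = 0.067), but passed without sgTrp53+MYC replicate 4 (log2 0.81, adjusted p = 0.030) and without FGF19+MYC replicate 1 (log2 0.70, adjusted p = 0.033). It passed as well in DESeq2 (log2 0.60, adjusted p = 0.043) and with only the compared groups in the fit (log2 0.61, adjusted p = 0.045). Aldafermin+MYC passed without sgTrp53+MYC replicate 4 too (log2 0.88, adjusted p = 0.040).

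Cdh2, the gene of N-cadherin (chr18:16700793-16942381, minus strand, 16 exons), moved little. The values were 96.6, 75.6, 84.1, 83.3 and 84.7 CPM in Aldafermin+MYC tumors and 62.6, 81.6, 98.4, 105 and 89.6 CPM in FGF19+MYC tumors. Tumors with sgTrp53+MYC had 86.3, 84.8, 113, 129.98 and 96.1 CPM, and livers 145, 136, 120.0, 97.3 and 108 CPM. All Aldafermin+MYC tumors were below all livers by a narrow margin, and the other tumor groups overlapped with livers. The log2 fold change against livers was -0.51 ± 0.15 in Aldafermin+MYC tumors (adjusted p = 0.006) and -0.47 ± 0.15 in FGF19+MYC tumors (adjusted p = 0.011), lower in both. Neither call held without a filter on low counts (-0.33, adjusted p = 0.12, and -0.29, adjusted p = 0.18), where the median of all genes against livers was 0.18 higher. The call for FGF19+MYC was lost also in edgeR's likelihood ratio test (-0.47, adjusted p = 0.062), and that for Aldafermin+MYC without Aldafermin+MYC replicates 3 and 4 and sgTrp53+MYC replicate 2 together (-0.39, adjusted p = 0.068). In sgTrp53+MYC tumors the difference from livers was -0.25 ± 0.15 (adjusted p = 0.15).

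The ratio of the cadherins, each taken as CPM per kilobase, ordered the groups without a test. The size of the ratio depends on the exon lengths used, and the order of the libraries does not. The Cdh1 level was 6.59, 7.74, 7.02, 5.53 and 4.80 times that of Cdh2 in the Aldafermin+MYC tumors and 4.49, 6.09, 5.88, 5.71 and 5.20 times in the FGF19+MYC tumors. It was 2.27, 3.59, 2.85, 3.71 and 3.58 times in sgTrp53+MYC tumors and 0.906, 0.683, 0.573, 2.00 and 0.773 times in livers. The mean ratio was 6.34 ± 1.17 in Aldafermin+MYC, 5.47 ± 0.64 in FGF19+MYC, 3.20 ± 0.62 in sgTrp53+MYC tumors and 0.99 ± 0.58 in livers (SD, n = 5 each). Every tumor of the hormone groups was above every sgTrp53+MYC tumor, every sgTrp53+MYC tumor was above every liver, and 4 of the livers had less Cdh1 than Cdh2. A switch from E-cadherin to N-cadherin is the textbook sign of EMT. The ratio, which was not tested, was higher in tumors than in livers. From a bulk sample it cannot be told whether cells made such a switch.

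**Figure D3:**
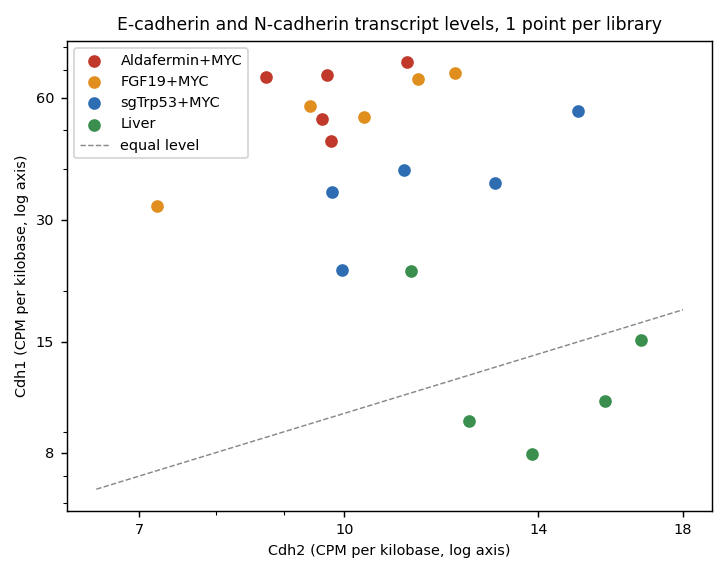
Cdh1 against Cdh2, each in CPM per kilobase on logarithmic axes, 1 point per library colored by group, with a dashed line where both are equal. The 15 tumors lie above the line, with ratios from 2.27 to 7.74, and 4 of 5 livers lie below it. The ratios and the place of the line depend on the exon lengths used.

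Vimentin, an intermediate filament of mesenchymal cells, was encoded by more transcripts in tumors than in livers. Vim (chr2:13578738-13587639, plus strand, 9 exons) was at 80.5, 61.0, 249, 101 and 85.7 CPM in Aldafermin+MYC tumors and 45.7, 119, 79.4, 97.6 and 115 CPM in FGF19+MYC tumors. It was at 55.9, 334, 94.7, 46.6 and 53.0 CPM in sgTrp53+MYC tumors and 33.6, 25.8, 25.0, 43.8 and 42.4 CPM in livers. Aldafermin+MYC replicate 3 and sgTrp53+MYC replicate 2 were far above the rest of their groups, and all tumors were above all livers. The log2 fold changes against livers were 1.76 ± 0.50 (adjusted p = 0.0042), 1.42 ± 0.50 (adjusted p = 0.016) and 1.78 ± 0.50 (adjusted p = 0.0039) for Aldafermin+MYC, FGF19+MYC and sgTrp53+MYC. Without sgTrp53+MYC replicate 2 that group's value was 0.88 (adjusted p = 0.039). Vim did not differ past the threshold between tumor groups: the mean of both hormone groups against sgTrp53+MYC was -0.19 ± 0.42 (95% interval -1.06 to 0.68) and turned to 0.71 without sgTrp53+MYC replicate 2 (adjusted p = 0.14).

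Cell type markers moved with Vim in those libraries. In sgTrp53+MYC replicate 2 the 8 biliary markers summed to 889 CPM, against 23.7 to 49.96 CPM in the rest of its group and 71.8 to 163 CPM in livers. Its Krt19, a keratin of bile duct cells, was at 191 CPM, Krt7 at 80.9, Epcam at 22.2 and Spp1 at 466 CPM, and Cftr, an ion channel of bile ducts, at 0.0700 CPM. In Aldafermin+MYC replicate 3 the 12 stellate cell and fibroblast markers summed to 1748 CPM against 215 to 651 CPM in the rest of its group, with Col1a1 at 871 CPM. Over the 20 libraries, with group means removed, log2 Vim correlated with the summed biliary markers at r = 0.85 and with the stellate cell and fibroblast markers at r = 0.66, as a description over libraries that share their depth and preparation. Of the 20 libraries, sgTrp53+MYC replicate 2 was highest in both Vim and the biliary sum, and r without it was not computed. The part of these markers in the level of Vim was not tested.

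Fibronectin transcripts fell in all tumors and fell furthest in sgTrp53+MYC tumors. Fn1 (chr1:71624673-71692419, minus strand, 46 exons) was at 242, 363, 601, 522 and 241 CPM in Aldafermin+MYC tumors and 138, 381, 401, 362 and 665 CPM in FGF19+MYC tumors. Levels were 107, 128, 143, 223 and 104 CPM in sgTrp53+MYC tumors and 3395, 3217, 2579, 2011 and 2062 CPM in livers. Every liver was above every tumor, and the Aldafermin+MYC tumors were all above the sgTrp53+MYC tumors, while FGF19+MYC replicate 1 lay among them. Against livers Fn1 was 6.73-fold lower in Aldafermin+MYC (log2 -2.75 ± 0.36, adjusted p = 1.7e-06), 6.81-fold lower in FGF19+MYC (adjusted p = 1.6e-06) and 18.8-fold lower in sgTrp53+MYC tumors (adjusted p = 1.1e-08). All 10 hepatocyte markers were lower than in livers in each tumor group as well, and with group means removed Fn1 correlated at r = 0.66 each with the stellate cell and the macrophage marker sums over 20 libraries. Their part in the level of Fn1 was not tested.

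Against sgTrp53+MYC tumors Fn1 was higher by a log2 fold change of 1.48 ± 0.35 in Aldafermin+MYC tumors (adjusted p = 0.0065), 1.47 ± 0.35 in FGF19+MYC tumors (adjusted p = 0.0077) and 1.48 ± 0.32 in both together (adjusted p = 0.0026), about 2.78-fold. Among the 10 macrophage and leukocyte markers, 5 passed as higher and 0 as lower in both hormone groups together than in sgTrp53+MYC tumors. The sums of all 10 were 202 to 694 CPM in Aldafermin+MYC, 311 to 572 in FGF19+MYC and 124 to 252 in sgTrp53+MYC tumors. Cd5l alone was at 62.9 to 154, 157 to 264 and 28.3 to 91.9 CPM in the same order. Ptprc, the leukocyte marker CD45, was detected in every library, and its levels overlapped between the tumor groups. They were 7.60 to 25.96, 6.75 to 13.3 and 7.31 to 24.3 CPM in the same order. Clec4f, a marker of Kupffer cells, was at 0 in Aldafermin+MYC replicate 2. Its levels overlapped too, at 0 to 36.3, 6.03 to 47.2 and 0.368 to 13.2 CPM. The part of these markers in the level of Fn1 was not tested. Of the 10 hepatocyte markers 4 were higher and 1 lower than in sgTrp53+MYC tumors. Leaving out Aldafermin+MYC replicates 3 and 4 and sgTrp53+MYC replicate 2 together, the libraries with the most fibroblast, hepatocyte and biliary transcripts of their groups, gave 0.95 for Aldafermin+MYC (adjusted p = 0.12), 1.39 for FGF19+MYC (adjusted p = 0.015) and 1.17 for both (adjusted p = 0.021). This set was chosen after the data were seen.

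Glipr2 was the 1 gene of the 9 whose levels stood wholly above the sgTrp53+MYC tumors in both hormone groups. Glipr2 also stands on the list that the study drew from these libraries, so this separation is no independent evidence. It (chr4:43957401-43979118, plus strand, 5 exons) encodes a membrane-anchored protein of the Golgi. Its level was 137, 102, 109.8, 99.6 and 158 CPM in Aldafermin+MYC tumors and 111, 88.4, 115, 104 and 81.7 CPM in FGF19+MYC tumors. In sgTrp53+MYC tumors it was 4.20, 10.1, 16.7, 52.1 and 14.1 CPM, and livers had 1.86, 1.14, 0.839, 2.46 and 1.95 CPM from 19 to 49 reads each. Within the sgTrp53+MYC group the values spread over more than a factor of 10, with replicate 4 highest. All tumors of the hormone groups were above all sgTrp53+MYC tumors, as were 3.28% of all genes, and these were above all livers.

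The log2 fold change of Glipr2 against livers was 6.22 ± 0.55 in Aldafermin+MYC (74.7-fold, adjusted p = 6.6e-09), 5.95 ± 0.54 in FGF19+MYC (61.6-fold, adjusted p = 1.1e-08) and 3.58 ± 0.50 in sgTrp53+MYC tumors (11.97-fold, adjusted p = 2.9e-06). Against sgTrp53+MYC it was 2.64 ± 0.45 for Aldafermin+MYC (adjusted p = 7.6e-04) and 2.36 ± 0.45 for FGF19+MYC (adjusted p = 0.0016). Without sgTrp53+MYC replicate 4 the mean of both against sgTrp53+MYC was 3.29 (adjusted p = 4.7e-06) in place of 2.50. With group means removed, Glipr2 correlated with the summed markers of no cell type list at |r| above 0.30 over 20 libraries, and with Cdh1 at r = 0.62.

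Snai1, the zinc finger factor SNAIL that represses Cdh1 in EMT, was low in all groups, and higher in the hormone groups than in livers. Snai1 (chr2:167380113-167384734, plus strand, 3 exons) was at 2.77, 2.90, 4.94, 2.46 and 1.82 CPM in Aldafermin+MYC tumors and 1.84, 3.13, 3.55, 2.70 and 3.34 CPM in FGF19+MYC tumors. Values were 0.708, 2.57, 0.980, 1.70 and 1.12 CPM in sgTrp53+MYC tumors and 1.29, 1.06, 0.972, 2.05 and 1.75 CPM in livers. The groups overlapped, since the lowest tumor of each hormone group lay below the highest liver and below sgTrp53+MYC replicate 2. Against livers the log2 fold change was 1.07 ± 0.36 in Aldafermin+MYC (adjusted p = 0.012) and 1.04 ± 0.36 in FGF19+MYC tumors (adjusted p = 0.015), about 2.10-fold, and -0.00 ± 0.36 in sgTrp53+MYC tumors (adjusted p = 1.00).

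The differences of Snai1 from sgTrp53+MYC tumors were near the threshold: 1.07 ± 0.35 for Aldafermin+MYC (adjusted p = 0.040), 1.04 ± 0.35 for FGF19+MYC (adjusted p = 0.0497) and 1.05 ± 0.31 for both (adjusted p = 0.020). Correcting for GC content and exon length lowered the last to 0.64 (adjusted p = 0.10), and without a filter on low counts it was 0.94 (adjusted p = 0.057). Of 10 other settings that left out no single library, the call for FGF19+MYC was lost in 6 (adjusted p up to 0.14) and that for Aldafermin+MYC in 3 (adjusted p up to 0.21). The call for Aldafermin+MYC was lost without any 1 of sgTrp53+MYC replicates 1, 3 and 5 and Aldafermin+MYC replicates 1, 2 and 3 (log2 0.81 to 1.10, the lowest without Aldafermin+MYC replicate 3), and that for FGF19+MYC without any 1 of sgTrp53+MYC replicates 1, 3, 4 and 5 and FGF19+MYC replicates 2 to 5 (log2 0.87 to 1.11). The call for the mean was lost without sgTrp53+MYC replicate 3 or 5 (adjusted p = 0.057 each). Without sgTrp53+MYC replicate 2, its highest library, the mean difference was 1.38 (adjusted p = 0.005). Snai1 also stands on the list that the study drew from these libraries, so these differences are no independent evidence. With group means removed Snai1 and Cdh1 correlated at r = 0.62 and Snai1 and Vim at r = 0.72 over the 20 libraries, a description only. Snai1 correlated in the same way with the summed stellate cell and fibroblast markers at r = 0.59 and with the biliary markers at r = 0.52, and their part in its level was not tested.

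Snai2, which encodes the related factor SLUG, was higher in livers than in tumors. The gene lies at chr16:14523425-14527252 (plus strand, 3 exons) and had 6.67, 10.9, 5.96, 8.40 and 12.7 CPM in livers. Aldafermin+MYC tumors had 0.316, 0.124, 0.480, 1.65 and 0.702 CPM and FGF19+MYC tumors 0.279, 0.437, 0.314, 0.411 and 0.879 CPM. The sgTrp53+MYC tumors had 0.807, 0.210, 0.784, 0.231 and 0.491 CPM. All tumors were below all livers, with 5 to 68 reads per tumor against 93 to 318 per liver. Snai2 was 13.8-fold lower than in livers in Aldafermin+MYC (log2 -3.79 ± 0.57, adjusted p = 8.5e-06), 18.9-fold in FGF19+MYC (adjusted p = 3.2e-06) and 17.6-fold in sgTrp53+MYC tumors (adjusted p = 3.0e-06), and tumor groups did not differ past the threshold. Snai2 passed the filter only through its level in livers. Its p-values and its separation against livers are therefore no independent support for that difference. Snai2 was highest within each hormone group in the library with the highest hepatocyte markers, namely Aldafermin+MYC replicate 4 (27629 CPM of summed markers) and FGF19+MYC replicate 5 (35405 CPM). Over 20 libraries with group means removed Snai2 and the hepatocyte sum correlated at r = 0.64, and the part of hepatocyte transcripts in its level was not tested.

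Zeb1 and Zeb2 encode zinc finger factors that repress Cdh1 through paired E-boxes. Zeb1 (chr18:5591851-5775467, plus strand, 8 exons) was at 14.01, 21.95, 20.4, 17.3 and 8.92 CPM in Aldafermin+MYC tumors, 13.3, 22.9, 21.8, 22.4 and 19.4 CPM in FGF19+MYC tumors and 14.03, 15.9, 26.7, 28.7 and 23.4 CPM in sgTrp53+MYC tumors. In livers it was at 23.2, 22.6, 25.0, 19.3 and 26.7 CPM. The groups overlapped throughout, and no comparison passed: the largest difference was -0.50 ± 0.23 for Aldafermin+MYC against livers (95% interval -0.99 to -0.01, adjusted p = 0.064), which passed in DESeq2 (-0.59, adjusted p = 0.018) and without any 1 of Aldafermin+MYC replicates 2 and 3 and Liver replicate 4 (-0.62 to -0.57).

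Zeb2 (chr2:44873644-45007464, minus strand, 9 exons) was at 3.64, 6.23, 19.98, 12.04 and 4.60 CPM in Aldafermin+MYC tumors and 4.69, 10.3, 6.87, 6.75 and 10.5 CPM in FGF19+MYC tumors. Levels of 5.93, 5.23, 12.6, 6.32 and 7.43 CPM were found in sgTrp53+MYC tumors and 14.6, 12.1, 13.7, 12.6 and 16.8 CPM in livers. All FGF19+MYC tumors were below all livers, and 1 tumor of sgTrp53+MYC and 1 of Aldafermin+MYC reached the range of livers or exceeded it. Zeb2 was lower than in livers by -0.89 ± 0.38 in sgTrp53+MYC tumors (adjusted p = 0.043), a call that was lost without any 1 of sgTrp53+MYC replicates 1, 2, 4 and 5 and Liver replicates 1, 3 and 5 (log2 -0.91 to -0.79). In FGF19+MYC tumors it was at -0.83 ± 0.38 (adjusted p = 0.058), past the threshold in DESeq2 (-0.89, adjusted p = 0.027) and without FGF19+MYC replicate 5 (-0.96, adjusted p = 0.047), and in Aldafermin+MYC tumors at -0.59 ± 0.38 (adjusted p = 0.17), where leaving out replicate 3 gave -1.07 (adjusted p = 0.009). Of 10 other settings that left out no single library, Zeb2 passed against livers in 8 for sgTrp53+MYC, 6 for FGF19+MYC and 1 for Aldafermin+MYC. The call of sgTrp53+MYC was lost with upper-quartile factors and without a filter on low counts. That 1 setting for Aldafermin+MYC left out its replicates 3 and 4 and sgTrp53+MYC replicate 2 together (-1.43, adjusted p = 4.8e-04). The antisense gene Zeb2os shares 871 bases with Zeb2, and without strand their reads cannot be told apart. The same limit holds for Fn1, which shares 429 bases with antisense Apol7d, and for Glipr2, which shares 197 with antisense Gm30377. The part of these overlaps in the levels was not tested. The sum of macrophage and leukocyte markers moved with Zeb2, at r = 0.89 over 20 libraries with group means removed, followed by stellate cell and fibroblast markers (r = 0.81) and endothelial markers (r = 0.74). In Aldafermin+MYC replicate 3, which had the highest Zeb2, these macrophage markers summed to 694 CPM, and their part in the level was not tested.

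Twist1, a helix-loop-helix factor of the mesoderm (chr12:34007645-34009828, plus strand, 2 exons), was close to undetected. It had 2 to 16 reads per Aldafermin+MYC tumor, 2 to 17 per FGF19+MYC tumor, 3 to 13 per sgTrp53+MYC tumor and 0 to 13 per liver. The highest level was 0.53 CPM, in FGF19+MYC replicate 5, and no test was made.

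The remaining marker lists moved as follows. Endothelial markers summed to 143 to 266 CPM in Aldafermin+MYC, 188 to 268 in FGF19+MYC and 109 to 194 in sgTrp53+MYC tumors against 276 to 453 CPM in livers, with 5, 4 and 6 of 10 lower and 2, 1 and 0 of 10 higher than in livers. T, NK and B cell markers summed to at most 9.77 CPM in any library and the 3 mesothelial markers to at most 5.84 CPM in any tumor, and the 1 of 8 T, NK and B cell markers that was tested passed in no comparison. Biliary markers, 7 of 8 tested, had 0 higher and 5 lower in both hormone groups together than in sgTrp53+MYC tumors, and 0 lower without sgTrp53+MYC replicate 2.

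**Figure D4:**
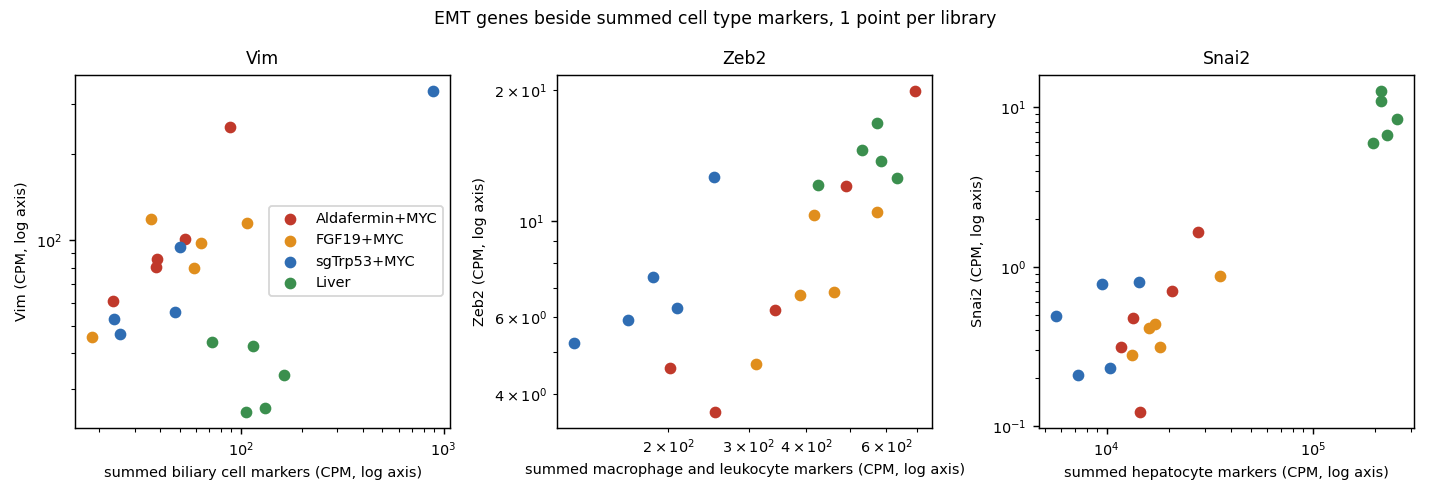
Vim against summed biliary markers, Zeb2 against summed macrophage and leukocyte markers and Snai2 against summed hepatocyte markers, all in CPM on logarithmic axes, 1 point per library colored by group. The Vim point at 334 CPM and 889 CPM of biliary markers is sgTrp53+MYC replicate 2, and the livers lie apart from all tumors in the Snai2 panel.

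For each tested gene the transcripts most like it were sought among genes averaging at least 5 CPM, as the Pearson correlation of log2 CPM over the 20 libraries after removal of group means. The closest to Cdh1 were Rhno1 (0.91), Frmd4b (0.90) and Gm42226 (0.88), and to Cdh2 Nrip1 (0.83), Uevld (0.82) and Rnf103 (0.81). Vim was closest to Orai1 (0.95), Elk3 (0.93) and Capg (0.92), and Fn1 to Lrp1 (0.92), Tpp1 (0.90) and Ptprj (0.88). For Glipr2 they were Grb10 (0.84), Gprc5c (0.83) and Nek6 (0.83), and for Snai1 Smtn (0.91), Pgs1 (0.87) and Tnfrsf10b (0.86). Snai2 was nearest to Slc22a30 (0.92), Cyp2j5 (0.91) and Akr1c6 (0.90), the last pair being enzymes of hepatocytes. Among those near Zeb1 were Tnrc6a (0.97) and Dhx57 (0.95), and Zeb2 was nearest to Cmklr1 (0.94), Cybb (0.94) and Stab1 (0.93), the last pair being genes of phagocytes and of sinusoidal endothelium and macrophages. These are among the highest of 10898 correlations or more for each gene, and only a description.

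Other genes of the transition were read from lists. Of 21 tested genes of epithelial junctions and keratins, 3 were higher and 11 lower than in livers in Aldafermin+MYC tumors (median log2 fold change -0.66), 2 and 10 in FGF19+MYC (-0.70), and 3 and 10 in sgTrp53+MYC tumors (-0.59), while the median of all genes was 0.13, 0.06 and 0.07. Among all tested genes 38.4%, 36.9% and 36.9% were higher and 31.9%, 32.9% and 33% lower in these comparisons, and every list count against livers is to be read against those shares. Without Aldafermin+MYC replicate 5 the count of lower genes in that group was 6. Gjb1, the connexin of hepatocyte gap junctions, fell to log2 fold changes of -2.68 ± 0.25 and -2.60 ± 0.25 in Aldafermin+MYC and FGF19+MYC tumors, and Dsg2, a desmosomal cadherin, had -1.68 ± 0.18 and -1.32 ± 0.18. F11r, a tight junction adhesion molecule (-0.66 ± 0.14 and -0.67 ± 0.14), and Pkp2, a desmosomal plaque protein (-0.43 ± 0.15 and -0.79 ± 0.15), were lower in both as well. The tight junction gene Ocln rose by 0.97 ± 0.16 (log2) in Aldafermin+MYC tumors and by 1.15 ± 0.16 in FGF19+MYC tumors.

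In comparison with sgTrp53+MYC tumors, 4 of the 21 were higher and 3 lower in both hormone groups together. Of all tested genes 11.6% were higher and 12.1% lower there. Every list count of both hormone groups together against sgTrp53+MYC tumors, here and elsewhere, is to be read against those shares. F11r (0.73 ± 0.12), the tight junction gene Cldn1 (1.23 ± 0.38) and Gjb1 (0.60 ± 0.21) were higher, but without sgTrp53+MYC replicate 2 the calls of Cldn1 (1.03, adjusted p = 0.059) and Gjb1 (0.48, adjusted p = 0.11) were lost, and F11r was at 0.82 (adjusted p = 2.9e-04). Krt19 was lower (-6.65 ± 1.18, adjusted p = 6.1e-04), but its level was 0.609, 191, 2.33, 0.0953 and 2.27 CPM in the 5 sgTrp53+MYC tumors, and without replicate 2 the value was -1.76 ± 0.68 (adjusted p = 0.075). Without that library 3 of the list were higher and 0 lower. The count of higher genes was 2 without any 1 of Aldafermin+MYC replicate 4, FGF19+MYC replicates 2 and 5 and sgTrp53+MYC replicate 1, and 1 without sgTrp53+MYC replicate 5.

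Epithelial transcription and splicing factors counted 8 tested of 14 listed, with 1 higher and 4 lower than in livers in Aldafermin+MYC, 1 and 3 in FGF19+MYC, and 1 and 4 in sgTrp53+MYC tumors. Elf3, an ETS factor of epithelia, rose by 2.97 ± 0.44 and 1.54 ± 0.43 (log2) in Aldafermin+MYC and FGF19+MYC tumors. It was lower in both together than in sgTrp53+MYC tumors (-1.73 ± 0.33). The hepatocyte factors Cebpa (-2.31 ± 0.21 and -2.15 ± 0.21) and Hnf4a (-1.19 ± 0.20 and -1.03 ± 0.20) fell in both hormone groups, as did the splicing factor gene Esrp2 (-0.67 ± 0.18 and -0.73 ± 0.18). Foxa2 was lower in Aldafermin+MYC tumors (-0.71 ± 0.18) and at -0.29 ± 0.18 in FGF19+MYC tumors (adjusted p = 0.14).

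Of 18 further EMT transcription factors, 10 were tested. Tcf3, which encodes E proteins that repress Cdh1, was higher than in livers by 1.38 ± 0.21 and 1.26 ± 0.21 in Aldafermin+MYC and FGF19+MYC tumors, and Tcf4 by 0.65 ± 0.19 in the latter, beside 0.39 ± 0.19 in the former (adjusted p = 0.081). Id3 (-2.87 ± 0.49 and -2.06 ± 0.48) and Id2 (-1.02 ± 0.27 and -0.80 ± 0.27), inhibitors of E proteins, were lower. Against sgTrp53+MYC tumors Id1, another inhibitor of E proteins, was higher (1.38 ± 0.35) and Sox4, an SRY-box factor, lower (-2.18 ± 0.32) in both hormone groups together. In all, 2 were higher and 3 lower than in livers in Aldafermin+MYC, 3 and 2 in FGF19+MYC, and 4 and 3 in sgTrp53+MYC tumors, beside 36.9 to 38.4% higher and 31.9 to 33% lower of all genes.

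Mesenchymal and matrix genes were next. Of 27 tested, 15 were higher and 1 lower than in livers in Aldafermin+MYC tumors (median log2 fold change 1.499), 14 and 1 in FGF19+MYC (0.96), and 11 and 4 in sgTrp53+MYC tumors (0.52), where 38.4%, 36.9% and 36.9% of all genes were higher. The 11 in sgTrp53+MYC tumors are near that share. Acta2, the smooth muscle actin of activated stellate cells, had 5.02 ± 0.55 in Aldafermin+MYC tumors and 4.66 ± 0.55 in FGF19+MYC tumors, and Thbs1, a matrix glycoprotein, 4.47 ± 0.77 and 3.54 ± 0.74. Lgals1, the gene of galectin-1 (1.69 ± 0.28 and 0.96 ± 0.28), and Col1a1, a chain of type I collagen (4.02 ± 0.71 and 3.34 ± 0.69), were higher in both hormone groups. Tgfbi, a matrix protein induced by TGF-beta, was the lower gene in both (-1.91 ± 0.38 and -2.31 ± 0.38). In sgTrp53+MYC tumors the count of higher genes was 7 without replicate 2. Against sgTrp53+MYC tumors 5 were higher and 0 lower in both hormone groups together, with Itga5, a subunit of the fibronectin receptor, at 1.23 ± 0.23, Tagln, an actin-binding protein of smooth muscle, at 1.39 ± 0.41 and Ccn2, a matricellular protein, at 1.67 ± 0.50, and the count was 2 with the 3 libraries named above left out. It was also 3 without sgTrp53+MYC replicate 1, 2 without sgTrp53+MYC replicate 5 and 9 in DESeq2. Taken apart, the hormone groups differed in this count: 6 were higher in Aldafermin+MYC and 1 in FGF19+MYC tumors, with 0 lower in each. Of all genes 10.2% and 7.97% were higher in these comparisons. With any 1 library left out the counts of higher genes were 1 to 13 and 1. Stellate cell and fibroblast markers, which share Acta2, Col1a1, Col3a1 and Pdgfrb with this list, had 3 of 12 higher and 6 lower than in livers in each hormone group, with Lrat, Reln and Dcn lower in every tumor than in every liver. Their sums were 215 to 1748 CPM in Aldafermin+MYC, 149.5 to 659.7 in FGF19+MYC, 171 to 306 in sgTrp53+MYC tumors and 356 to 504 CPM in livers, and their part was not tested.

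The genes of transforming growth factor beta signaling, the main input of EMT, moved in both directions. Of 17 tested, 3 were higher and 5 lower than in livers in Aldafermin+MYC, 5 and 4 in FGF19+MYC, and 1 and 7 in sgTrp53+MYC tumors, beside 36.9 to 38.4% higher and 31.9 to 33% lower of all genes. The count of higher genes was 5 without Aldafermin+MYC replicate 5 in that group, 3 without Liver replicate 2 or 4 in FGF19+MYC and 3 without sgTrp53+MYC replicate 1 in that group. Bmp7, a ligand that opposes the pathway, was higher (2.83 ± 0.57 and 2.80 ± 0.57), as was Skil, a SMAD corepressor (1.08 ± 0.24 and 1.03 ± 0.24). The inhibitory Smad7 (-1.68 ± 0.27 and -1.42 ± 0.27) and Smad6 (-1.74 ± 0.43 and -1.13 ± 0.43) and the coreceptor Eng (-1.84 ± 0.38 and -1.66 ± 0.38) were lower in both hormone groups. Tgfbr3, the coreceptor betaglycan, was lower in Aldafermin+MYC tumors (-1.48 ± 0.37, beside -0.01 ± 0.36 in FGF19+MYC tumors, adjusted p = 0.98), and Smad3 was higher in FGF19+MYC tumors (0.62 ± 0.26, beside 0.31 ± 0.26 in Aldafermin+MYC tumors, adjusted p = 0.29). Against sgTrp53+MYC tumors 6 of the 17 were higher and 1 lower in both hormone groups together, among them the type II receptor gene Tgfbr2 (1.00 ± 0.25), Skil (0.82 ± 0.21) and Bmp7 (1.75 ± 0.50) as higher and Smad3 (-0.69 ± 0.22) as lower. With the 3 libraries named above left out the higher genes numbered 3, as they did without sgTrp53+MYC replicate 5.

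**Figure D5:**
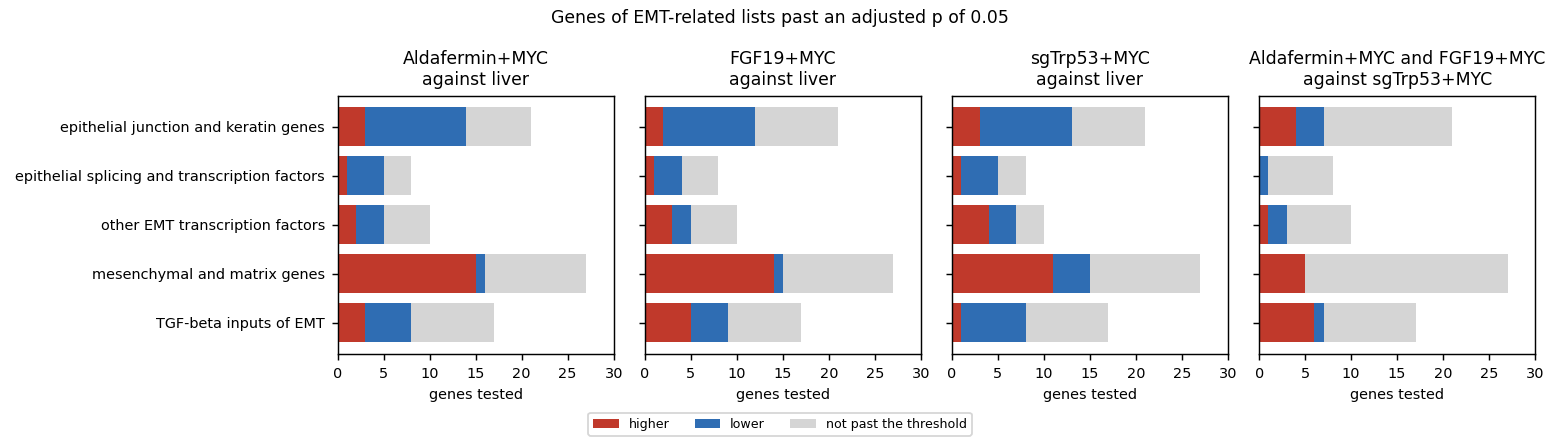
Number of tested genes (horizontal axis) of 5 EMT-related lists that were higher, lower or not past an adjusted p of 0.05, in 4 comparisons. Against livers the mesenchymal and matrix list had more genes higher than lower in Aldafermin+MYC, FGF19+MYC and sgTrp53+MYC tumors (15, 14 and 11 higher of 27), and the epithelial junction list more genes lower (11, 10 and 10 of 21).

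A further list, the annotated positive regulators of EMT that the study drew from these libraries, held 16 genes, of which 15 were tested. It was chosen on these samples and is no independent evidence of its direction. In both hormone groups together 8 were higher and 0 lower than in sgTrp53+MYC tumors, and Glipr2, Snai1, Tgfbr2, Bmp7 and Gcnt2 (1.02 ± 0.28), a glycosyltransferase gene, were among them. The count was 7 without sgTrp53+MYC replicate 2 and between 4 and 9 with any 1 library left out, the lowest without sgTrp53+MYC replicate 5. Against livers 7 were higher and 1 lower in Aldafermin+MYC, 8 and 1 in FGF19+MYC, and 3 and 5 in sgTrp53+MYC tumors, with Gcnt2 the lower one in FGF19+MYC tumors (-0.90 ± 0.31, beside -0.69 ± 0.30 in Aldafermin+MYC tumors, adjusted p = 0.050).

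Aldafermin+MYC and FGF19+MYC tumors could be compared gene by gene, since their proteins differ in the amino-terminal part and both groups stood in the same table. The differences were 0.15 ± 0.27 for Cdh1 (95% interval -0.43 to 0.72), -0.04 ± 0.15 for Cdh2 (-0.36 to 0.28) and 0.34 ± 0.49 for Vim (-0.68 to 1.35). Fn1 differed by 0.02 ± 0.34 (-0.70 to 0.73), Glipr2 by 0.28 ± 0.43 (-0.61 to 1.17) and Snai1 by 0.03 ± 0.35 (-0.69 to 0.76). Snai2 was at 0.45 ± 0.55 (-0.71 to 1.60), Zeb1 at -0.28 ± 0.23 (-0.76 to 0.21) and Zeb2 at 0.25 ± 0.38 (-0.54 to 1.04), all as log2 fold changes. Every interval spans 0, and those of Vim, Glipr2, Snai2 and Zeb2 also span a change of 2-fold, so that a difference of that size is not excluded for these genes with 5 libraries per group. The other 5 genes had intervals within that size in both directions.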

How the data were processed

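The authors sequenced stranded poly(A) libraries as paired ends, demultiplexed them with bcl2fastq 2.20.0.422, aligned reads with HISAT2 to mm39 and counted pairs per RefSeq gene with htseq-count. The deposited values are raw read counts per gene, in 2 tables, 1 of them holding the sgTrp53+MYC libraries alone. The strand setting of the counting is not given in the sources used here. The 5 summary lines of each library were removed, and 0 columns were left out. Groups came from the sample titles, and no replicates of a group agreed within sampling noise (chi-square over its degrees of freedom at least 15.0 in 40 pairs).

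Both tables were joined by symbol. Genes with at least 1 CPM in 5 or more of the 20 libraries were scaled by TMM and fitted in 1 model of 4 groups with edgeR 4.0.16 (R 4.3.3, quasi-likelihood test). Benjamini-Hochberg adjustment ran over all 14333 genes, with a threshold of 0.05. The standard error is the absolute log2 fold change over the square root of F. Depth was 18004977 to 66354724 reads on genes per library. Gene positions and windows came from the GENCODE annotation of GRCm39, the same assembly as mm39. The fit was tested on simulated data for Aldafermin+MYC against FGF19+MYC. Of 100 genes with a log2 fold change of 1 it found 31. Of 100 genes with a log2 fold change of 2 it found 77, and it made 4 false calls. Most changes of a log2 fold change of 1, and some of 2, would thus go uncalled in that comparison.

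The 10 genes, the gene lists and the tests were chosen with earlier results of these data known. From each list up to 3 genes per direction with the smallest adjusted p and a mean of at least 5 CPM were named, beside the 10 genes, the 3 most alike to each, Trp53 and marker genes. A few genes that this rule named are not reported here. Alternatives were DESeq2 1.42.0, edgeR's likelihood ratio test, other size factors and filters, a fit of the compared groups alone, a replicate block, a GC and length correction and each library left out. Leaving out 3 libraries together was added after the data were seen. Figures were drawn with matplotlib 3.10.9.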

Additional observations from a re-analysis of the deposited data

Results flagged for a closer look

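In 9 of 72 groups of 5 libraries examined, 1 library stood apart by Dixon's criterion, where chance gives about 1 group in 20, or 3.6 of 72. Vim was at 249 CPM in Aldafermin+MYC replicate 3, against 61.0 to 101 CPM in the others of its group, and at 334 CPM in sgTrp53+MYC replicate 2, against 46.6 to 94.7 CPM. The same libraries stood apart in markers: the stellate cell and fibroblast sum was 1748 CPM in Aldafermin+MYC replicate 3 (215 to 651 CPM in the others), and in sgTrp53+MYC replicate 2 the biliary sum was 889 CPM (23.7 to 49.96 CPM) and the mesothelial sum 5.84 CPM (0.061 to 0.63 CPM). Most of that mesothelial sum was Msln (5.32 CPM), with Upk3b at 0.378 and Wt1 at 0.140 CPM. The part of cells with such markers in the level of Vim was not tested.

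Glipr2 was at 52.1 CPM in sgTrp53+MYC replicate 4 and at 4.20 to 16.7 CPM in the others. FGF19+MYC replicate 5 had Snai2 at 0.88 CPM (0.28 to 0.44 CPM in the others) and hepatocyte markers summing to 35405 CPM (13278 to 18161 CPM). In Liver replicate 4 the ratio of Cdh1 to Cdh2 was 2.00, against 0.57 to 0.91 in the other livers.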

How the results depend on the processing

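Of 1305 fold changes of the 9 genes set against an alternative, 1168 kept direction and side of the threshold, 41 lost and 21 gained the threshold and 75 changed sign, all of them differences not past it. The number of the 9 genes past the threshold was 0 between Aldafermin+MYC and FGF19+MYC in every fit, and 6 to 9, 6 to 8 and 5 to 6 against livers in Aldafermin+MYC, FGF19+MYC and sgTrp53+MYC tumors. Against sgTrp53+MYC it was 2 to 4, 2 to 3 and 2 to 4 for Aldafermin+MYC, FGF19+MYC and both. The causes of changes were not tested. Fitting without a filter moved the median of all genes by -0.11 against sgTrp53+MYC and by 0.18 to 0.29 against livers. Snai1, Snai2 and Twist1 rested on few reads, and sgTrp53+MYC libraries cannot be told apart from their table.

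Changes of sign were as follows, in log2. Under DESeq2 the values were Fn1 -0.006838 and Snai1 -0.001041 for Aldafermin+MYC against FGF19+MYC. With DESeq2 size factors the values were Fn1 -0.006823 and Snai1 -2.00e-04 for Aldafermin+MYC against FGF19+MYC. With GC and length correction the values were Snai1 -0.11 for Aldafermin+MYC against FGF19+MYC, Vim 0.0253 for Aldafermin+MYC against sgTrp53+MYC, Snai2 0.0826 for FGF19+MYC against sgTrp53+MYC and Snai1 0.15 for sgTrp53+MYC against livers. At 1 CPM in 2 libraries the values were Snai1 0.0124 for sgTrp53+MYC against livers. In edgeR's likelihood ratio test the values were Snai1 0.003159 for sgTrp53+MYC against livers. Without a filter the values were Zeb2 -0.0533 for FGF19+MYC against sgTrp53+MYC and Cdh2 0.0375, Snai1 0.28 and Zeb1 0.18 for sgTrp53+MYC against livers. With only the compared groups the values were Fn1 -0.0103 and Snai1 -0.003230 for Aldafermin+MYC against FGF19+MYC and Snai1 0.12 and Zeb1 0.0117 for sgTrp53+MYC against livers. Leaving out Aldafermin+MYC replicates 3 and 4 and sgTrp53+MYC replicate 2 together, chosen after seeing the data, gave Vim -0.23, Fn1 -0.44, Snai1 -0.20, Snai2 -0.27 and Zeb2 -0.67 for Aldafermin+MYC against FGF19+MYC, Vim 0.27, Snai2 -0.61 and Zeb2 -0.75 for Aldafermin+MYC against sgTrp53+MYC, Vim 0.51 and Zeb2 -0.0818 for FGF19+MYC against sgTrp53+MYC, Vim 0.39, Snai2 -0.47 and Zeb2 -0.42 for both hormone groups against sgTrp53+MYC and Zeb1 0.11 for sgTrp53+MYC against livers. With 1 library left out at a time, differences with values of both signs spanned Cdh2 -0.14 to 0.0311, Fn1 -0.20 to 0.30, Snai1 -0.22 to 0.15, Snai2 -0.22 to 0.81, Vim -0.15 to 0.50 and Zeb2 -0.24 to 0.45 for Aldafermin+MYC against FGF19+MYC, Snai1 -0.33 to 0.17 and Zeb1 -0.22 to 0.0214 for sgTrp53+MYC against livers, Snai2 -0.32 to 0.62, Vim -0.51 to 0.88 and Zeb2 -0.18 to 0.58 for Aldafermin+MYC against sgTrp53+MYC, Snai2 -0.47 to 0.12, Vim -0.56 to 0.54 and Zeb2 -0.0667 to 0.33 for FGF19+MYC against sgTrp53+MYC and Snai2 -0.21 to 0.35, Vim -0.43 to 0.71 and Zeb2 -0.0603 to 0.45 for both hormone groups against sgTrp53+MYC.

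Same-numbered libraries of different groups deviated together little (mean r -0.11 to 0.04, beside -0.009 to 0.031 for libraries of other numbers), so replicate numbers serve as names. A replicate block gave Snai1 1.08 (adjusted p = 0.056) for FGF19+MYC against sgTrp53+MYC and Zeb2 -0.86 (adjusted p = 0.040) and Zeb1 -0.54 (adjusted p = 0.044) for FGF19+MYC and Aldafermin+MYC against livers, and changed no other call of the 9 genes. Over all genes it gave 2267 calls for Aldafermin+MYC and 2080 for FGF19+MYC against sgTrp53+MYC, in place of 2534 and 2258. The values of opposite sign with the block were Fn1 -0.003853 for Aldafermin+MYC against FGF19+MYC, Vim 0.21 for Aldafermin+MYC against sgTrp53+MYC and Vim 0.0274 and Snai2 -0.0166 for both hormone groups against sgTrp53+MYC.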
